A study of Mus musculus with 6 samples.

Results

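The genes described here are 10 receptors and effectors of the interleukin 6 cytokine family, measured in pools of mouse dorsal root ganglion neurons on 6 Affymetrix expression arrays. They were taken as a named set of genes, 10 of the 18193 genes on the arrays that had a probe set with 1 symbol, and all 10 were found. Together they had 28 of the 34945 such probe sets. The arrays covered 3 title codes by 2 size classes, and each combination had 1 array. A pool of L3-B was of 50 control neurons. A pool of L3-S or L6-R was of 20 neurons labelled with DiI, a membrane dye transported from the axon's end to the soma. In each code 1 pool was of big diameter neurons and 1 of medium to small diameter neurons. The labels do not give the meaning of the codes, the place of the DiI, or the strain, age, genotype and number of the mice, and nothing says that pools of different codes came from different animals. The code therefore cannot be told apart from the animal, and between the control and the DiI pools it cannot be told apart from the number of neurons pooled.

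Cytokines of this family, such as interleukin 6, leukaemia inhibitory factor, oncostatin M and ciliary neurotrophic factor, signal through receptor complexes that nearly all hold gp130, the product of Il6st. Ligand-specific chains (Il6ra, Lifr, Osmr, Cntfr) complete the complexes, and Osmr also pairs with Il31ra, a gp130-like chain, to form the receptor for the itch cytokine interleukin 31. The complexes activate the kinases JAK1 and JAK2, which phosphorylate the transcription factor STAT3. STAT3 induces Socs3, whose product binds gp130 and the JAKs and stops the signal. In sensory neurons the pathway is known for its activation after axon injury and for its part in itch and heat sensitivity.

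Values are signal intensities, the authors' linear summary of each probe set. Differences are of log2(signal + 32) and come from 1 limma model of title code and size class fitted to all 6 arrays, with their standard error (SE). Signals under 32 are near the background of such arrays and made up 55.3% to 59.6% of an array. The added 32 shrinks differences that involve them. Where a gene had several probe sets, the one with the highest mean led. Of the 10 genes, 8 passed the filter on dim genes and were tested. Il6ra and Il31ra were not tested. The p-values were adjusted over all 9097 genes tested. They and the SE rest on the spread between these pools alone, which may in part be technical. With 1 array per combination, that spread is how far code differences vary between the size classes. The SE is moderated by limma, which draws each gene's spread towards that of all genes tested. Before this the residual standard deviation was 0.84 log2 for Osmr and 0.053 for Jak1, beside moderated SE of 0.46 and 0.22. The comparisons of L6-R with L3-S and with L3-B share the L6-R arrays. The 3' to 5' signal ratio of the Actb control is a measure of RNA completeness, with a low ratio for complete RNA. It was 13.9 and 3.73 for L3-B (big, then medium to small, the order used for every pair of values here), 5.42 and 11.99 for L3-S, and 8.31 and 8.42 for L6-R. All 10 sensory neuron markers looked at (such as Tubb3, Uchl1 and Prph) were above 32 on all 6 arrays, with summed signals between 54544 and 72660.

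**Figure D1:**
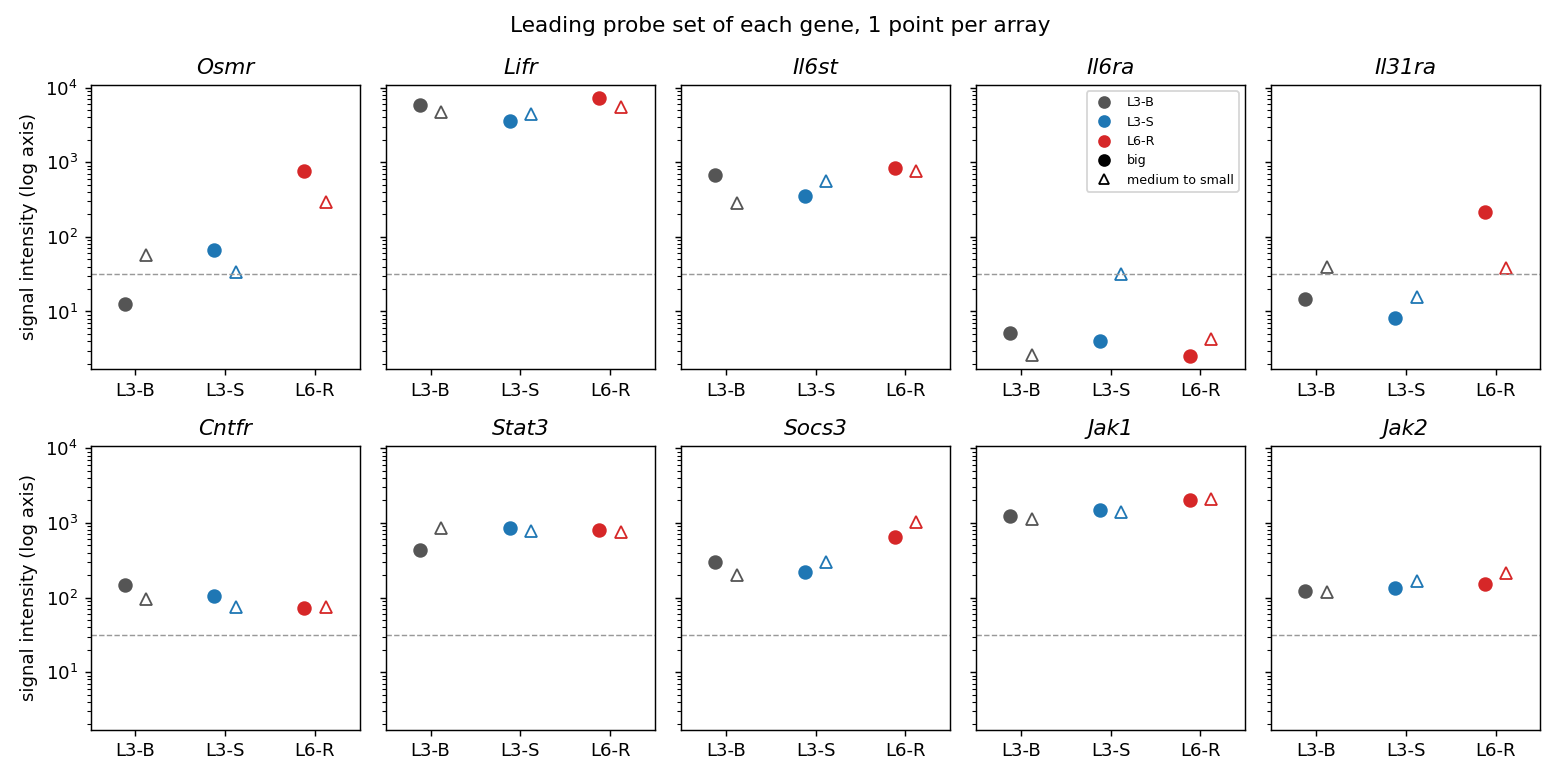
Signal intensity (log axis) of the leading probe set of each of the 10 genes, 1 point per array, by title code, with filled circles for big and open triangles for medium to small diameter pools; the dashed line is at 32. Osmr stood at 767 and 289 in the L6-R arrays and at no more than 65.8 in the others, while Stat3 had overlapping values in all 3 codes and Il6ra stayed under 32 on all 6 arrays.

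The oncostatin M receptor gene Osmr (chromosome 15) was close to background in both L3 codes and well above it in L6-R. Its signals were 12.7 and 57.1 (L3-B), 65.8 and 33.3 (L3-S) and 767 and 289 (L6-R). Both L6-R arrays lay above all 4 others, the big pool highest, and the L3-B and L3-S values overlapped. Osmr rose in L6-R by 2.66 ± 0.46 log2 (SE, n = 2 arrays per code) over L3-S, which is 6.34-fold by the point estimate (adjusted p = 0.0196), and by 3.01 ± 0.46 over L3-B (8.03-fold, adjusted p = 0.00606). The difference from L3-S was 3.03 between the big pools and 2.30 between the medium to small pools, and that from L3-B was 4.16 and 1.85. L3-S and L3-B differed by 0.34 ± 0.46, with an interval from -0.71 to 1.39 (adjusted p = 0.921), so the order of these codes was not resolved. Osmr passed the filter on dim genes only through the L6-R arrays, since its mean over the L3 arrays was 6.15 against the minimum of 6.41. With no filter the L6-R against L3-S comparison did not pass (adjusted p = 0.0961), nor did it with a pseudocount of 1 (adjusted p = 0.116). With single arrays left out the difference ran from 1.90 to 3.43 against L3-S and from 2.03 to 3.98 against L3-B. Where that left a code with 1 array, the lone array was taken to vary like the other codes. Its other probe sets carried no such signal: both were under 32 on every array, between 1.66 and 28.3.

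Il31ra (chromosome 13), the partner of Osmr in the interleukin 31 receptor, was high in a single pool. Its leading probe set had signals of 14.5 and 39.6 (L3-B), 8.08 and 15.7 (L3-S) and 216 and 38.1 (L6-R). The other probe set was highest in the same L6-R big pool, at 83.9, and between 5.54 and 34.0 in the other 5. Il31ra was under the filter on dim genes and was not tested; the difference between L6-R and L3-S was 2.63 log2 between the big pools and 0.56 between the others, so that the value rests on 1 array. Itch neurons that carry Il31ra and Osmr are also known for the peptides encoded by Nppb and Sst. Nppb stood at 78.6 in the L6-R big pool and at 2.96 to 36.7 in the others. Sst stood at 29.8 in that pool and at 1.84 to 5.34 in the others, all under 32. Cysltr2 was also highest there, at 28.8, but close to the 23.5 of L3-S medium to small. The other markers of these neurons looked at had another order: Htr1f was highest in L3-S medium to small (89.5), and Nts was highest in L6-R medium to small (37.8). The summed signal of the 5 markers was 201 in the L6-R big pool and 66.7 to 137 in the rest. None of the 5 passed the filter on dim genes. In a pool, more neurons of a type and more RNA per neuron cannot be told apart.

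**Figure D2:**
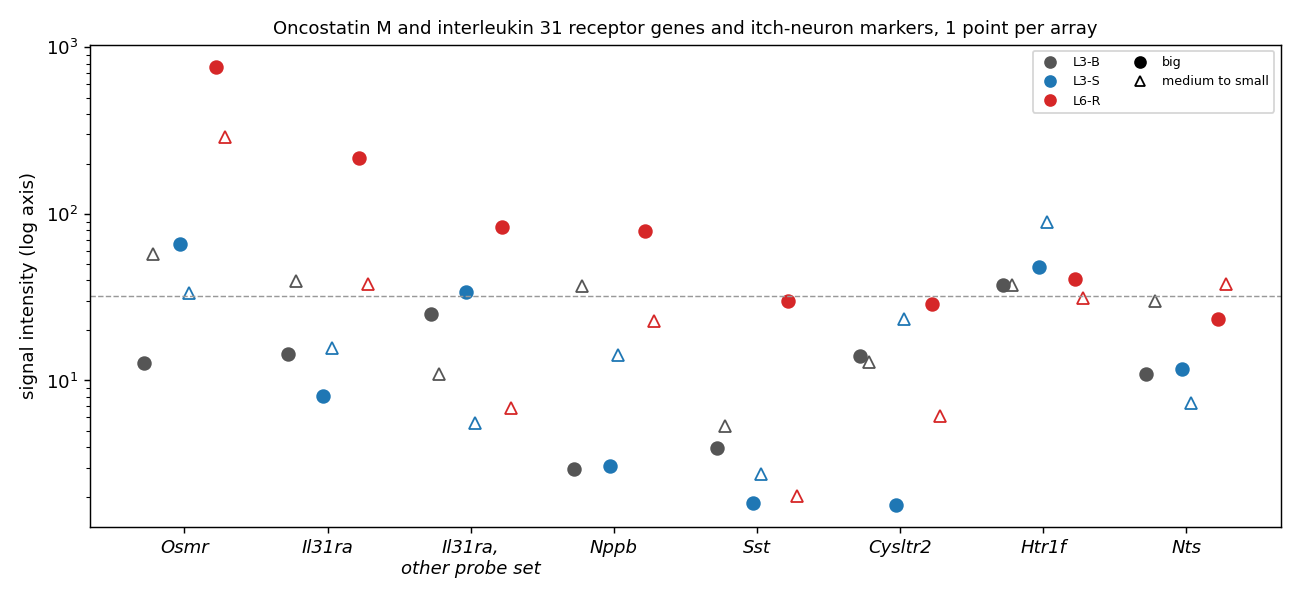
Signal intensity (log axis) of Osmr, both Il31ra probe sets and 5 itch-neuron markers, 1 point per array, with the dashed line at 32. In the L6-R big pool Osmr (767), both Il31ra probe sets (216 and 83.9), Nppb (78.6), Sst (29.8) and Cysltr2 (28.8) had their highest signals, while Htr1f and Nts were highest in other pools.

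Il6st (chromosome 13), which encodes the shared chain gp130, was highest in both L6-R pools by each of its 2 bright probe sets, without passing the test. The leading one had signals of 671 and 287 (L3-B), 354 and 554 (L3-S) and 834 and 755 (L6-R). The next had signals of 326 and 541 (L3-B), 396 and 456 (L3-S) and 723 and 744 (L6-R). On both probe sets the L6-R arrays lay above the other 4. By the leading probe set the difference of L6-R was 0.80 ± 0.37 log2 from L3-S (adjusted p = 0.345) and 0.80 ± 0.37 from L3-B (adjusted p = 0.257). The call turned on single L3 arrays. Leaving out the medium to small pool of L3-S, the difference from L3-S was 1.42 and passed (adjusted p = 0.0445), and without the L3-B big array the difference from L3-B was 1.49 and passed (adjusted p = 0.0193). Leaving out the other array of the same code instead, the differences were 0.18 from L3-S (adjusted p = 0.922) and 0.11 from L3-B (adjusted p = 0.871). The other 2 probe sets of Il6st stayed under 32 on every array.

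No other ligand-binding chain passed the test. Lifr (chromosome 15), the leukaemia inhibitory factor receptor chain, had signals of 5886 and 4744 (L3-B), 3559 and 4358 (L3-S) and 7274 and 5539 (L6-R), so L6-R overlapped with L3-B and lay above L3-S. Its difference between L6-R and L3-S was 0.68 ± 0.25 log2 (adjusted p = 0.222), and that between L6-R and L3-B was 0.26 ± 0.25 (adjusted p = 0.605). Cntfr (chromosome 4), the membrane-anchored receptor of ciliary neurotrophic factor, had its lowest values in L6-R. Its signals were 148 and 94.3 (L3-B), 105 and 75.6 (L3-S) and 73.0 and 75.3 (L6-R). The L6-R values were the lowest, just under the L3-S medium to small array, and the difference from L3-B of -0.51 ± 0.24 did not pass (adjusted p = 0.262). Il6ra (chromosome 3), the interleukin 6 binding chain, was under 32 on all 6 arrays by both probe sets, from 1.51 to 31.4, and no difference between codes can be read from it.

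Of the kinases, Jak1 (chromosome 4) differed in small steps between the codes without passing the test. Its signals were 1229 and 1143 (L3-B), 1505 and 1418 (L3-S) and 2040 and 2092 (L6-R). Both L6-R arrays lay above the other 4, as for 15.8% of all genes, and both L3-S arrays lay above those of L3-B. The share of all genes with no overlap between the 3 codes was not counted. The steps were nearly alike in both size classes (0.72 and 0.85 log2 between L6-R and L3-B). The fit gave 0.79 ± 0.22 for L6-R against L3-B, just outside the threshold (adjusted p = 0.0693), 0.49 ± 0.22 for L6-R against L3-S (adjusted p = 0.324) and 0.29 ± 0.22 for L3-S against L3-B (adjusted p = 0.784). The first of these passed with a pseudocount of 64 (adjusted p = 0.0465) or without the size class (adjusted p = 0.0417), and did not pass with the mean of all Jak1 probe sets past the filter (0.62, adjusted p = 0.238). The second Jak1 probe set also had its highest signals in L6-R (1980 and 1618, against 907 to 1473). The third was high in the L6-R big pool alone (489, against 120.5 to 280 in the others). Jak2 (chromosome 19) had signals of 121 and 118 (L3-B), 133 and 168 (L3-S) and 152 and 212 (L6-R). The L6-R and L3-S values overlapped, both L3-B values lay below them, and the difference of L6-R was 0.22 ± 0.23 from L3-S (adjusted p = 0.705) and 0.48 ± 0.23 from L3-B (adjusted p = 0.274).

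Stat3 (chromosome 11), the transcription factor of the pathway, showed no difference between codes larger than its spread. The leading probe set had signals of 439 and 867 (L3-B), 864 and 773 (L3-S) and 799 and 751 (L6-R), and the next had 907 and 513, 559 and 721, and 648 and 768. The codes overlapped on both. By the leading probe set L6-R differed by -0.07 ± 0.30 log2 from L3-S, with an interval from -0.76 to 0.61 (adjusted p = 0.940), and by 0.31 ± 0.30 from L3-B (adjusted p = 0.613). The arrays measure transcript level, and STAT3 activity, which depends on its phosphorylation, was not measured.

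Socs3 (chromosome 11), the feedback inhibitor that STAT3 induces, rose in L6-R. Its leading probe set had signals of 296 and 203 (L3-B), 219 and 295 (L3-S) and 652 and 1041 (L6-R). Both L6-R arrays were above the other 4, the medium to small pool highest, and L3-B and L3-S overlapped. Socs3 rose by 1.58 ± 0.30 log2 over L3-S (n = 2 arrays per code, 2.99-fold, adjusted p = 0.0285) and by 1.63 ± 0.30 over L3-B (3.09-fold, adjusted p = 0.0136). L3-S and L3-B differed by 0.04 ± 0.30, with an interval from -0.63 to 0.72 (adjusted p = 0.991). A second Socs3 probe set had signals of 178 and 122 (L3-B), 129 and 145 (L3-S) and 324 and 512 (L6-R). Both of these probe sets are of a design that can bind more than 1 transcript. The third, whose design is not of that kind, had 45.3 and 49.6, 66.5 and 57.0, and 68.4 and 106, again highest in L6-R. Tested beside all other probe sets, its differences of 0.33 from L3-S (adjusted p = 0.628) and 0.57 from L3-B (adjusted p = 0.280) did not pass. The Socs3 call rested on few arrays. Leaving out the medium to small pool of L6-R, the adjusted p was 0.224 against L3-S and 0.113 against L3-B, and without the L3-S big array it was 0.0514 against L3-S. The mean of all Socs3 probe sets stood at 1.10 against L3-S and did not pass (adjusted p = 0.0745). The call against L3-S was also lost with a pseudocount of 1 and with no filter on dim genes.

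**Figure D3:**
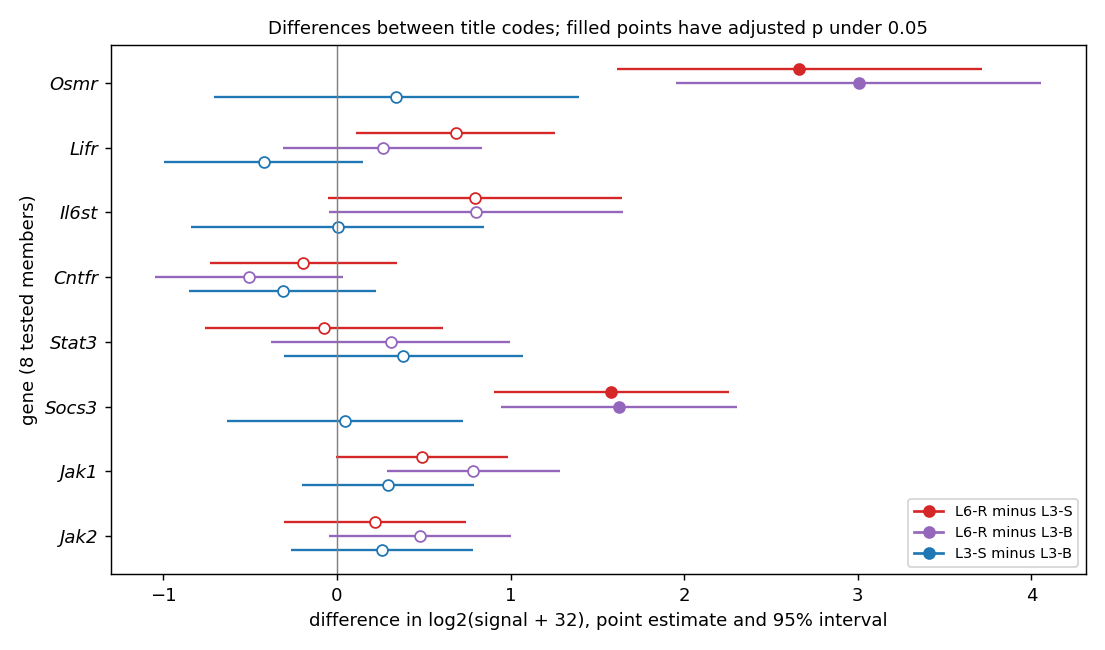
Differences between title codes in log2(signal + 32) for the 8 tested genes, with points for the estimates and bars for 95% intervals from the limma fit; filled points have an adjusted p under 0.05. The Osmr differences of L6-R (2.66 and 3.01) and those of Socs3 (1.58 and 1.63) are filled, and all differences between L3-S and L3-B are open.

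Counted together, 2 of the 8 tested genes, Osmr and Socs3, rose in L6-R against L3-S and 0 fell. Of all 9097 genes 3.18% passed, 1.26% higher and 1.91% lower. The same 2 rose against L3-B and 0 fell, and of all genes 7.51% passed, 4.66% higher and 2.85% lower. The median difference of the 8 was 0.59 log2 against L3-S and 0.63 against L3-B, beside -0.01 and 0.02 over all genes. Between L3-S and L3-B, 0 of the 8 passed the limma test, also 0 at an unadjusted p under 0.05, and of all genes 1.02% passed (0.923% higher). Both L6-R arrays were above the 4 other arrays for Osmr, Il6st, Socs3 and Jak1 and below them for Cntfr. Over all genes 15.8% were above and 16% below in this way. These counts are over the genes that passed the filter, Osmr only through its L6-R values.

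The promoters of the 2 genes that rose and of Il31ra are shown because STAT factors are known to bind the palindrome TTCNNNGAA, which reads the same on both strands. The letters are those of RefSeq for GRCm38.p6, 250 bases before 1 annotated start of each gene, 5′ to 3′ on the gene's strand, with matches in capitals. Other annotated starts of these genes can lie elsewhere. The Osmr window is chr15:6874314-6874563, that of Socs3 chr11:117969367-117969616 and that of Il31ra chr13:112580663-112580912, all on the minus strand.
Osmr: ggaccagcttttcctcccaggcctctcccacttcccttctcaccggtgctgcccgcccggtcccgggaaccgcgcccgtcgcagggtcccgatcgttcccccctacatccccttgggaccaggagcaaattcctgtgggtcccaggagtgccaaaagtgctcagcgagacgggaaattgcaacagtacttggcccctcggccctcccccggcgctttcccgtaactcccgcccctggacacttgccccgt
Socs3: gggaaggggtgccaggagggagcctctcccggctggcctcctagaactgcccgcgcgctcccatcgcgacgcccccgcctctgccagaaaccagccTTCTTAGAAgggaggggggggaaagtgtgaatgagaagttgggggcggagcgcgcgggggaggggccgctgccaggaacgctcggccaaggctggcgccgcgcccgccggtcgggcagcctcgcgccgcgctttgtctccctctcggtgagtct
Il31ra: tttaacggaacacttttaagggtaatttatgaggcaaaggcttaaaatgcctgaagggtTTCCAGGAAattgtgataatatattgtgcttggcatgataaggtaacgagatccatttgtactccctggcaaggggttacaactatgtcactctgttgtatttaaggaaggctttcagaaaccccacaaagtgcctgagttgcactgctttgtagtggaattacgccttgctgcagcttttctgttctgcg
The Socs3 window held 1 match, TTCTTAGAA, from 154 to 146 bases before the start, and the Il31ra window held 1, TTCCAGGAA, from 191 to 183 bases before it. The Osmr window held none. The other 7 genes held none in any of their windows, so that 2 of 16 windows of the 10 genes had a match. Of all 32851 RefSeq windows of this length, 7.02% held a match. A match in these letters is a description and does not show a bound site.

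The rest of the pathway was followed in lists of known members. Of 11 ligands, 8 had a probe set with 1 symbol, and 0 of the 8 passed the filter on dim genes. Their signals were under 32 on every array except for Osm, the oncostatin M gene, on the L3-S big array (38.4) and Ctf1, the cardiotrophin gene, on the L6-R medium to small array (54.0). Of 10 other receptors, JAKs and STATs, 8 were measured and 3 tested, with 0 past the threshold in any comparison. Stat6, a STAT known from interleukin 4 signalling, had the smallest unadjusted p of the 3 in L6-R against L3-B. Its signals were 214 and 209 (L3-B), 223 and 225 (L3-S) and 370 and 418 (L6-R), with a difference of 0.81 ± 0.22 log2 (adjusted p = 0.0644).

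Among 18 inhibitors and adaptors, 15 were tested. None passed between L6-R and L3-S (median 0.07, smallest adjusted p = 0.0922), and 1 rose and 1 fell in L6-R against L3-B (median 0.02), near the share of all genes that passed (4.66% higher, 2.85% lower). The riser was Gab1, a docking protein that carries gp130 signals to the MAP kinase and PI3 kinase pathways. It had signals of 270 and 187 (L3-B), 304 and 303 (L3-S) and 574 and 624 (L6-R), and rose by 1.29 ± 0.24 over L3-B (2.45-fold, adjusted p = 0.0144). Its difference from L3-S of 0.91 ± 0.24 did not pass (adjusted p = 0.0922). Socs5, a member of the SOCS family known chiefly as an inhibitor of other receptors, fell where Socs3 rose. Its signals were 1758 and 1882 (L3-B), 1515 and 1426 (L3-S) and 843 and 887 (L6-R). It fell by 1.04 ± 0.22 log2 in L6-R against L3-B (adjusted p = 0.0248), and the difference from L3-S of -0.74 ± 0.22 did not pass (adjusted p = 0.128). For both genes the L6-R values did not overlap with the others, as for 15.8% (above) and 16% (below) of all genes.

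Of 21 genes known as STAT3 targets, 13 were tested. The list was chosen with earlier results of these data known, so its counts are descriptions. In L6-R against L3-S 2 rose and 0 fell (median 0.53), and in L6-R against L3-B 4 rose and 0 fell (median 0.35), where 1.26% and 4.66% of all genes rose. In L3-S against L3-B 0 passed (median 0.32). Sprr1a, a small proline-rich protein of regrowing axons, had signals of 19.6 and 3.09 (L3-B), 64.4 and 44.7 (L3-S) and 294 and 136 (L6-R). It rose in L6-R by 1.45 ± 0.24 log2 over L3-S (adjusted p = 0.0180) and by 2.46 ± 0.24 over L3-B (adjusted p = 0.000801). The neuropeptide gene Gal had signals of 28.6 and 18.9 (L3-B), 46.0 and 30.7 (L3-S) and 216 and 158 (L6-R). It rose in L6-R by 1.63 ± 0.22 over L3-S (adjusted p = 0.00742) and by 1.97 ± 0.22 over L3-B (adjusted p = 0.00141). Fos and Myc encode transcription factors of early growth responses, and both rose in L6-R over L3-B; over L3-S neither passed. Fos had signals of 1465 and 870 (L3-B), 1387 and 1454 (L3-S) and 2387 and 4511 (L6-R), and rose by 1.51 (adjusted p = 0.0390). Myc had signals of 48.7 and 59.6 (L3-B), 71.0 and 61.2 (L3-S) and 133 and 149 (L6-R), and rose by 1.01 (adjusted p = 0.0314). For all 4 genes both L6-R arrays were above the other 4, as for 15.8% of all genes. Sprr1a and Gal, like Osmr, passed the filter only through L6-R, so the count against L3-S rests on them. Bcl3, Cebpd and Ccnd1, none of them past the threshold, also passed the filter only in this way and enter the medians of the 13. Over all 21 targets with no filter the median was 0.33 against L3-S and 0.41 against L3-B. With no filter and all 21 targets tested, Gal alone rose against L3-S (adjusted p = 0.0282, and 0.0586 for Sprr1a), and Sprr1a and Gal rose against L3-B (adjusted p = 0.00639 and 0.00761), where 0.225% and 1.68% of all genes rose. Other known targets did not pass the test. Hif1a was lower in L6-R (419 and 387, against 671 to 772), without passing in either comparison (adjusted p = 0.135 and 0.0719), and for the survival genes Mcl1 and Bcl2l1 the L6-R signals overlapped with those of L3-B and of L3-S.

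Markers of other cells and of neuron types moved with some of these comparisons. The list of 10 measured satellite glia and Schwann cell markers had summed signals of 12951 and 12008 (L3-B), 14015 and 17518 (L3-S) and 15396 and 21502 (L6-R). The markers did not all follow these sums. S100b, a large part of each sum, was lowest in L6-R, with 6832 and 5546 (L3-B), 5149 and 5753 (L3-S) and 5114 and 4918 (L6-R). Fabp7 was lower in L6-R (499 and 1308) than in L3-S (675 and 1766). Of these 10, 5 rose in L6-R against L3-B, where 4.66% of all genes rose, and 0 passed between L6-R and L3-S. Sox10 and Mal, 2 of the 5, passed the filter on dim genes only through the L6-R arrays, and with no filter only the lipoprotein gene Apoe rose. Between L3-S and L3-B only Apoe rose (2.14 ± 0.25 log2, adjusted p = 0.00938), and with no filter 0 of the 10 rose. The 11 connective tissue and vessel markers had summed signals of 465 and 327 (L3-B), 1413 and 1591 (L3-S) and 1063 and 1921 (L6-R). Of the 3 that were tested, all 3 rose in L6-R against L3-B, again beside 4.66% of all genes, and 0 passed between L6-R and L3-S. With no filter 2 of the 11, Dcn and Col3a1, rose in L6-R against L3-B, where 1.68% of all genes rose. Of the 3 tested, the pericyte gene Rgs5 rose in L3-S against L3-B (3.32 ± 0.38, adjusted p = 0.00938), and with no filter 0 of the 11 rose. Both sums were highest in the L6-R medium to small pool, as was Socs3, whereas Osmr and Il31ra were highest in the L6-R big pool. The 8 blood and immune markers summed to 126 to 304, again highest in L6-R medium to small. In that pool the macrophage genes Csf1r and Lyz2 had their highest signals of the 6 arrays, 122 and 85.9. Csf1r also stood at 71.1 in the L3-S big pool and at 69.3 in the L6-R big pool. Cd74 went the other way, lowest in the L6-R medium to small pool (27.2) and highest in the L6-R big pool (43.6). Ptprc, Cd68, Aif1 and Itgam stayed under 32 on every array. Csf1r was the only one of the 8 tested, and it passed the filter on dim genes only through the L6-R arrays. It did not pass the limma test (adjusted p = 0.345 against L3-S and 0.288 against L3-B). The part of these cells in the Osmr and Socs3 differences was not tested.

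Markers of large myelinated-fibre neurons other than Nefh were lower in L6-R. The 5 measured had summed signals of 21530 and 19250 (L3-B), 17194 and 20033 (L3-S) and 12790 and 10674 (L6-R), and the L6-R sums lay below the other 4. Nefh had the highest signals of the 5, and its L6-R signals of 9581 and 7766 overlapped with those of L3-B and L3-S. It did not pass the limma test (adjusted p = 0.843 against L3-S and 0.537 against L3-B). Of the 5, 2 fell in L6-R against L3-S, where 1.91% of all genes fell, and 4 fell against L3-B, where 2.85% fell. With no filter 1 fell against L3-S and 3 against L3-B, where 0.363% and 0.835% of all genes fell. The calcium-binding protein gene Pvalb, a marker of proprioceptors, had signals of 723 and 756 (L3-B), 2084 and 3413 (L3-S) and 69.1 and 31.9 (L6-R). Its level in L6-R fell by 5.07 log2 against L3-S (adjusted p = 0.000566) and fell by 3.26 against L3-B (adjusted p = 0.000801), and it rose in L3-S against L3-B (1.81, adjusted p = 0.0435). The synaptic vesicle gene Vamp1 fell by 1.26 against L3-S and fell by 1.55 against L3-B (adjusted p = 0.0216 and 0.00453). Ntrk3, the neurotrophin 3 receptor gene, fell by 2.11 against L3-B (adjusted p = 0.00134), and its difference of -0.96 from L3-S did not pass (adjusted p = 0.0717). Fewer such neurons in a pool and less of these transcripts per neuron cannot be told apart, and the part of either in the Osmr and Socs3 differences was not tested.

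The 2 size classes were compared within each code. Of the 8 tested genes, 0 passed the limma test between big and medium to small pools, also 0 at an unadjusted p under 0.05, and over all genes 0% passed (320 of 9097 at an unadjusted p under 0.05). The estimates for big minus medium to small ran from -0.23 log2 for Stat3 to 0.30 for Osmr. Osmr was lower in the big pool in L3-B (-0.997) and higher in L3-S (0.58) and L6-R (1.32). The markers of large neurons had no common direction between the size classes. Ntrk3 was higher in the big pool in every code (0.10 in L3-B, 0.53 in L3-S and 0.16 in L6-R), and Vamp1 was lower in every code (-0.44, -0.17 and -0.17). Nefh, the heavy neurofilament gene, was higher in the big pool in L3-B (0.48) and L6-R (0.30) and lower in L3-S (-0.25).

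Probe sets of the same gene gave opposite size differences in 1 or both L3 codes. For Il6st, big minus medium to small by the leading probe set was 1.14 log2 for L3-B pools and -0.60 for L3-S pools, and by the next -0.68 and -0.19. For Stat3 the leading probe set stood at -0.93 and 0.15 and the next at 0.78 and -0.35. For Jak1 the leading probe set stood at 0.10 and 0.08 and the next at -0.68 and 0.38. The 3' to 5' Actb ratio was also higher in the big pool in L3-B (13.9 against 3.73) and higher in the medium to small pool in L3-S (11.99 against 5.42). Of the 13 probe sets of these genes above 32 on all 6 arrays, 10 differed in opposite directions in L3-B and L3-S, and over all 13969 such probe sets 60.2% did. Of the 10, 6 were higher in L3-B big and L3-S medium to small, the order of the Actb ratio, and 4 had the reverse order. Over all such probe sets 27.9% had the first order and 32.4% the reverse. The part of RNA completeness in these size differences was not tested.

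**Figure D4:**
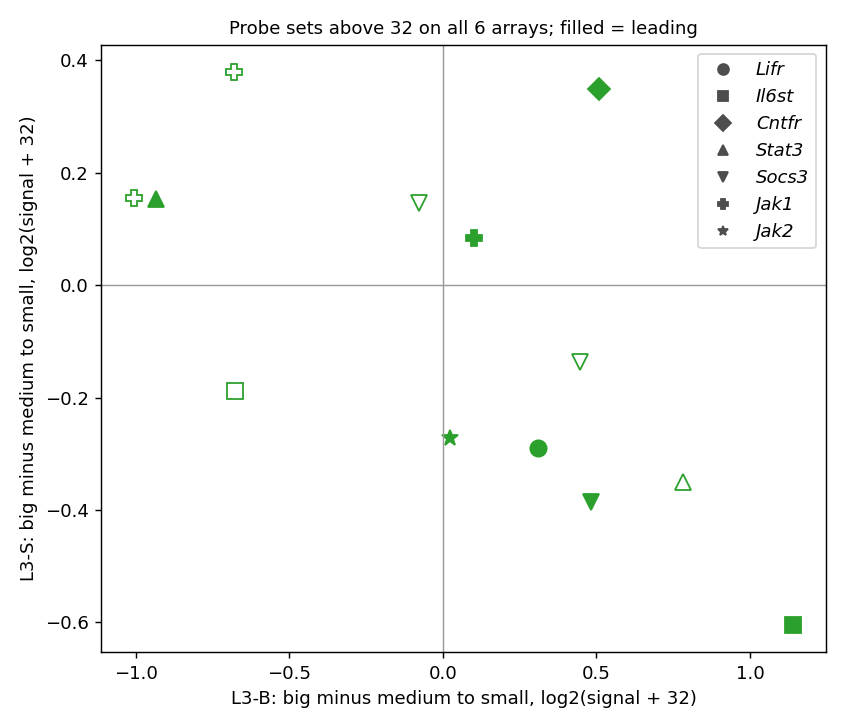
Difference between the big and the medium to small pool in log2(signal + 32), in L3-B (horizontal) and L3-S (vertical), for the 13 probe sets above 32 on all 6 arrays; the symbol gives the gene and filled symbols are leading probe sets. The Il6st leading probe set lies at 1.14 and -0.60 and the other Il6st probe set at -0.68 and -0.19, and the Stat3 probe sets lie on opposite sides of both axes.

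Genes with a pattern most like those of the 3 tested members with the widest range were listed by Pearson's r over the 6 arrays, among 2445 other tested genes whose own range was at least 1 log2. With so few arrays, and L6-R standing apart from the rest, high values are common, and these are descriptions. For Osmr they were Zeb2, a zinc finger transcription factor (r = 0.988), the anthrax toxin receptor Antxr2 (0.984), the kinase gene Sgk3 (0.980), the calmodulin kinase gene Camk1g (0.980) and Pabpc1, a poly(A) binding protein (0.977). Zeb2 had signals of 132 and 175 (L3-B), 195 and 191 (L3-S) and 554 and 344 (L6-R). For Socs3 they were the ribosomal protein gene Rpl19 (0.985), the macrophage growth factor gene Csf1 (0.979), Arhgap28 (0.977), Armh4 (0.976) and Anks1b (0.974). Csf1 had signals of 70.0 and 41.2 (L3-B), 51.9 and 61.2 (L3-S) and 195 and 213 (L6-R). For Il6st they were the ankyrin gene Ank3 (0.993), Eml5 (0.989), the presynaptic scaffold gene Rims2 (0.988), Birc6 (0.987) and the transcription factor gene Klf7 (0.984). Ank3 had signals of 1279 and 523 (L3-B), 705 and 953 (L3-S) and 1526 and 1367 (L6-R), with the same high L3-B big and L3-S medium to small values as the leading Il6st probe set. Among the members themselves, r with Osmr was 0.876 for Jak1, 0.769 for Socs3 and -0.678 for Cntfr.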

How the data were processed

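Total RNA from 6 pools of neurons, isolated with a PicoPure kit per the labels, was measured on Affymetrix arrays. The deposited table gives the authors' linear signal intensity for 45037 probe sets and 64 control probe sets. Each array's mean after trimming 2% at each end was 150, so the values were taken as already scaled and were not normalized again. Neither the summary method nor the software is named in the sources used here, and no detection calls were used. Of the probe sets, 34945 carried 1 gene symbol in the platform annotation, 932 several and 9160 none.

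Values were transformed as log2(signal + 32). The probe set with the highest mean led each gene, and the upper 50% of genes by mean (9097, minimum 6.41) were tested in R 4.3.3 with limma 3.58.1 (lmFit and eBayes, title code and size class additive, 2 residual and 6.46 prior degrees of freedom, two-sided). The Benjamini-Hochberg adjustment was used, with a threshold of 0.05. The additive model assumes that codes differ alike in both size classes, since each combination had 1 array. The script was checked on simulated data.

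The members and lists were chosen with earlier results of these data known. Named were all 10 members, list genes past the threshold (at most 4 per list, comparison and direction) and, for the 3 tested members of widest range, the 5 genes with the highest r. Stat6, Hif1a, Mcl1, Bcl2l1, the ligands Osm and Ctf1, and the marker genes given with values were named after their values were seen. Alternatives were pseudocounts of 1 and 64, other filters, quantile normalization, other uses of probe sets, fits to 2 codes, without the size class or with a trend, and leaving out each array. The Actb ratio as a covariate and the mean of the probe sets past the filter were added after seeing the data. The number of arrays limits the precision.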

Additional observations from a re-analysis of the deposited data

Results flagged for a closer look

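Il6st differed between L3-S and L3-B in opposite directions in the size classes. The leading probe set was lower in L3-S in the big pair (-0.87 log2) and higher in the medium to small pair (0.88), with 1 array on each side, and the difference between the pairs was not tested. The Actb ratio differed in the same order (5.42 against 13.9 in the big pair, 11.99 against 3.73 in the medium to small pair), and the second Il6st probe set gave 0.26 and -0.23 for the same pairs. The part of RNA completeness in this was not tested.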

How the results depend on the processing

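The count of 2 tested genes past the threshold between L6-R and L3-S was 0 with a pseudocount of 1, 0 with no filter, 0 with the mean of all probe sets, 1 among the upper 25% of genes and 1 with the mean of the probe sets past the filter, and ran from 1 to 3 with single arrays left out. Against L3-B the count of 2 was 1 among the upper 25% of genes, 1 with the mean of all probe sets and 4 with the Actb ratio as a covariate (Il6st and Jak1 added), and ran from 1 to 3 with single arrays left out. Osmr was too dim to be tested among the upper 25% of genes or by the mean of its 3 probe sets. The counts of 0 between L3-S and L3-B and between the size classes stayed 0 in every alternative run for them. Over all genes, the count past the threshold was 289 between L6-R and L3-S (107 to 997 over the alternatives), 683 between L6-R and L3-B (356 to 1590), 93 between L3-S and L3-B (14 to 512) and 0 between size classes (0 to 2). Of 544 recomputed single differences 498 kept direction and side of the threshold, 9 lost the call, 8 gained it and 29, none of them called, changed sign. No called difference changed sign. Il6ra, under 32 on every array, allows no statement on its differences, nor does Il31ra outside the L6-R big pool. Fits that leave a code with 1 array take its spread from the other codes.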
